A study of Mus musculus with 28 samples.

Results

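MHC class I antigen presentation was followed through 10 genes: the class I heavy chain genes H2-K1 and H2-D1, the light chain gene B2m, the peptide transporter genes Tap1 and Tap2, the loading factor gene Tapbp, the immunoproteasome subunit genes Psmb8, Psmb9 and Psmb10, and the class I transactivator gene Nlrc5. They were chosen by symbol, and all 10 were found among the 49492 symbols of the count table. The cells were epithelium scraped from the corpus of the mouse stomach. Mice carried a villin-PPARD transgene (called PPARD below) or were WT littermates without it. There were 5 libraries of each genotype at 10 weeks of age, 4 at 25 weeks and 5 at 55 weeks, 28 in all. The transgene is named for villin, whose promoter is best known for driving expression in the intestinal epithelium, and PPARD is a nuclear receptor that responds to fatty acids. The sources used here do not give the species of the transgene's coding sequence, the founder lines, the strain, its MHC haplotype or the sex of the mice. Labels name no cell sort, so scraped material may hold cells other than epithelium. Nothing in the labels states that each library is 1 mouse, so p-values measure the spread between these libraries.

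Class I molecules show short peptides from inside a cell to CD8 T cells. The proteasome cuts cytosolic proteins, TAP1 and TAP2 carry the peptides into the endoplasmic reticulum, tapasin (Tapbp) holds the empty heavy chain and B2m there until a peptide fits, and the loaded complex travels to the surface. Interferons raise this route, partly by replacing 3 catalytic proteasome subunits with those encoded by Psmb8, Psmb9 and Psmb10, and partly through NLRC5, which acts at the SXY module of class I promoters together with RFX, CREB/ATF and NF-Y factors.

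Of the 10 genes, 7 lie on chromosome 17 in the MHC and its extension (GRCm38, GENCODE M21): Tapbp at 33915899 to 33929292, H2-K1 at 33996017 to 34000347, Psmb9 at 34181987 to 34187764, Tap1 at 34187553 to 34197225, Psmb8 at 34197721 to 34201454, Tap2 at 34203527 to 34216321 and H2-D1 at 35262730 to 35267499. B2m lies on chromosome 2 at 122147686 to 122153083. Psmb10 and Nlrc5 lie on chromosome 8, at 105935735 to 105938444 and 94434356 to 94527272. All are protein-coding genes. The promoters of the chain genes are shown because the 3 share an ordered set of short motifs, that of Psmb8 because this subunit differed most between genotypes among the proteasome genes, and that of Tap1 because it is also the promoter of Psmb9. Each run is 250 bases before to 50 bases after the RefSeq start site (GRCm38.p6), 5′ to 3′ on the gene's own strand, with matches to any of 5 motifs in capitals. The windows are chr17:34000298-34000597 (minus strand) for H2-K1, chr17:35262844-35263143 (plus) for H2-D1, chr2:122147437-122147736 (plus) for B2m, chr17:34197945-34198244 (plus) for Psmb8 and chr17:34187306-34187605 (plus) for Tap1.
H2-K1: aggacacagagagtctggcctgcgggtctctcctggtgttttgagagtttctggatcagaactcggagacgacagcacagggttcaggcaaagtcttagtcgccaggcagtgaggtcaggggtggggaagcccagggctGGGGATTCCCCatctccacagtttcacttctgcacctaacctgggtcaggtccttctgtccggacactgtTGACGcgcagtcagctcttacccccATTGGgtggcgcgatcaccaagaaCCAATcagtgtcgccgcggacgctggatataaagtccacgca
H2-D1: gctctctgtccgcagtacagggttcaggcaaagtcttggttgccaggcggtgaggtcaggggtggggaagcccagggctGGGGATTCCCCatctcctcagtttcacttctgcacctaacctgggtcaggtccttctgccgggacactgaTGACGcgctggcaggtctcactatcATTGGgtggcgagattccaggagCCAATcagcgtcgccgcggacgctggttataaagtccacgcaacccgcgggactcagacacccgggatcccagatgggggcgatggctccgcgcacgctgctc
B2m: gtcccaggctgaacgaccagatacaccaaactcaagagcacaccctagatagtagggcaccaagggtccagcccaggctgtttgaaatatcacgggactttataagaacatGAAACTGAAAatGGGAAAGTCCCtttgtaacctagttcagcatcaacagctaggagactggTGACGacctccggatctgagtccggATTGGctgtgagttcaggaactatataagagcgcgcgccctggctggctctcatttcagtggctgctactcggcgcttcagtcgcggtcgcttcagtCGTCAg
Psmb8: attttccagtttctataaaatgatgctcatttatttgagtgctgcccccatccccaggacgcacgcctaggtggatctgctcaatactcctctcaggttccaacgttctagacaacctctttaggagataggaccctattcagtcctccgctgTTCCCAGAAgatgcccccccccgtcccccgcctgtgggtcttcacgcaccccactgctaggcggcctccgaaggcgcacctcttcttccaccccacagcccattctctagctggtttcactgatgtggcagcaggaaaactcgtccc
Tap1: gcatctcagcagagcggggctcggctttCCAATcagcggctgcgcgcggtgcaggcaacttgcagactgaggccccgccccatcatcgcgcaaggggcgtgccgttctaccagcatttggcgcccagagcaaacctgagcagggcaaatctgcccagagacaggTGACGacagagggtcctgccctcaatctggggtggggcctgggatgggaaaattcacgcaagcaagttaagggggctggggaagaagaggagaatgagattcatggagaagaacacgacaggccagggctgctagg

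RefSeq windows were matched for 8 of the 10 genes, all but Tap2 and Nlrc5. Those of H2-D1, Tapbp, Psmb8 and Psmb9 lie within the GENCODE spans given above, so they may not precede every transcript of these genes. The motifs, searched on both strands, were the ISRE core (2 GAAA blocks with 2 free bases between them), the GAS element TTCNNNGAA, a kappaB element (GGGA, 4 free bases, CC), the CCAAT box CCAAT and the CRE-like TGACG, the core of the X2 box. TGACG was found in 5 of the 8 genes and in 20.8% of the 32851 mouse windows of the same length. CCAAT was found in 6 of the 8, against 37.4% of all windows. In both counts the matches of Tap1 and Psmb9 are the same bases read on opposite strands, so each site counts for both genes. The kappaB letters stood in H2-K1, H2-D1 and B2m, against 20.7% of all windows, where the matches on the plus and minus strands overlap. By these exact letters, the ISRE core was found in B2m alone (3.4% of all windows) and the GAS element in Psmb8 alone (8.3% of all windows). Looser forms of the motifs were not searched for, so a window without a match may still hold such an element. In H2-K1, H2-D1 and B2m a CCAAT box on the opposite strand began 25 bases after TGACG, an arrangement held by 31 of the 32851 windows, or 0.09%. That spacing was looked for after the matches had been seen. Those 31 windows belong to 27 genes, of which 22 were tested. Without H2-K1, H2-D1 and B2m, from which the spacing was taken, 6, 8 and 7 of the other 19 were called higher in PPARD libraries at 10, 25 and 55 weeks and 1, 3 and 4 lower, beside 17.9%, 21% and 31.7% of all genes tested called higher. The kappaB letters began 69 bases before TGACG in H2-K1 and in H2-D1, and 49 bases before it in B2m. The windows of Tap1 and Psmb9 overlap by 275 bases, since the start sites of these genes lie 226 bases apart on opposite strands.

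Libraries held 10982888 to 30891108 counts each, and 15812 genes passed the filter on low counts, all 10 class I genes among them. The label check gave higher Ppard in PPARD libraries, by 0.56, 0.31 and 0.23 on the log2 scale at 10, 25 and 55 weeks, and the Ppard ranges of the genotypes overlapped at 25 and 55 weeks. Vil1, the mouse's own villin gene, was higher by 1.95, 2.06 and 3.28. Column names sort the libraries into 2 tagged groups. Group 1 has the 25-week libraries and, at 10 weeks, replicates 1 to 3 of each genotype. Group 2 has all libraries of 55 weeks and, at 10 weeks, replicates 4 and 5. WT replicate 3 of 25 weeks carries neither tag but that of a replacement. WT replicates 2 and 3 of 10 weeks were more alike than any other of the 52 pairs within a group (chi-square per degree of freedom of 4.26, against 15.1 to 169 for the other pairs), and all 10 class I genes were still called at 10 weeks without either. The summed level of 16 gastric corpus epithelial markers was 259300 to 330900 CPM (counts relative to TMM-scaled library size) in WT and 218900 to 252900 in PPARD libraries at 10 weeks. It was 262300 to 307100 and 172500 to 201900 at 25 weeks, and 209200 to 281500 and 46650 to 86700 at 55 weeks, so the sum in every PPARD library was below that in every WT library of its age. Gene by gene the list was mixed: 5 of the 16 were called higher and 3 lower at 10 weeks, and 4 and 4 at 25 weeks. At 55 weeks 3 were higher and 10 lower. The median log2 differences were 0.14, -0.23 and -1.78. Of all 15812 genes tested, 2823, 3318 and 5009 were called higher and 2557, 2944 and 4371 lower. The part of the epithelial markers in the class I values was not tested. Epcam, an epithelial surface gene, was detected in every group, with means between 249 and 662 CPM.

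All 10 genes were higher in the PPARD libraries at every age. By edgeR's quasi-likelihood F test, with p adjusted by the method of Benjamini and Hochberg, 10 of 10 were called higher (adjusted p under 0.05) at 10 weeks, where 17.9% of the genes tested were called higher, 10 of 10 at 25 weeks, against 21%, and 10 of 10 at 55 weeks, against 31.7%. The median log2 difference (PPARD minus WT) over the 10 was 2.26, 2.27 and 2.49 at 10, 25 and 55 weeks, beside medians of -0.03, -0.01 and 0.03 over all genes tested. At each age every PPARD library lay above every WT library for all 10 genes, a separation seen in 14.5%, 14.9% and 23.9% of genes tested. An exact permutation test, two-sided on log2 CPM, thus gave for each of the 30 comparisons the smallest p its design allows, 0.00794 for 5 against 5 libraries and 0.0286 for 4 against 4. In bulk RNA, a change in the number of cells of a type and a change in RNA per cell cannot be told apart.

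**Figure D1:**
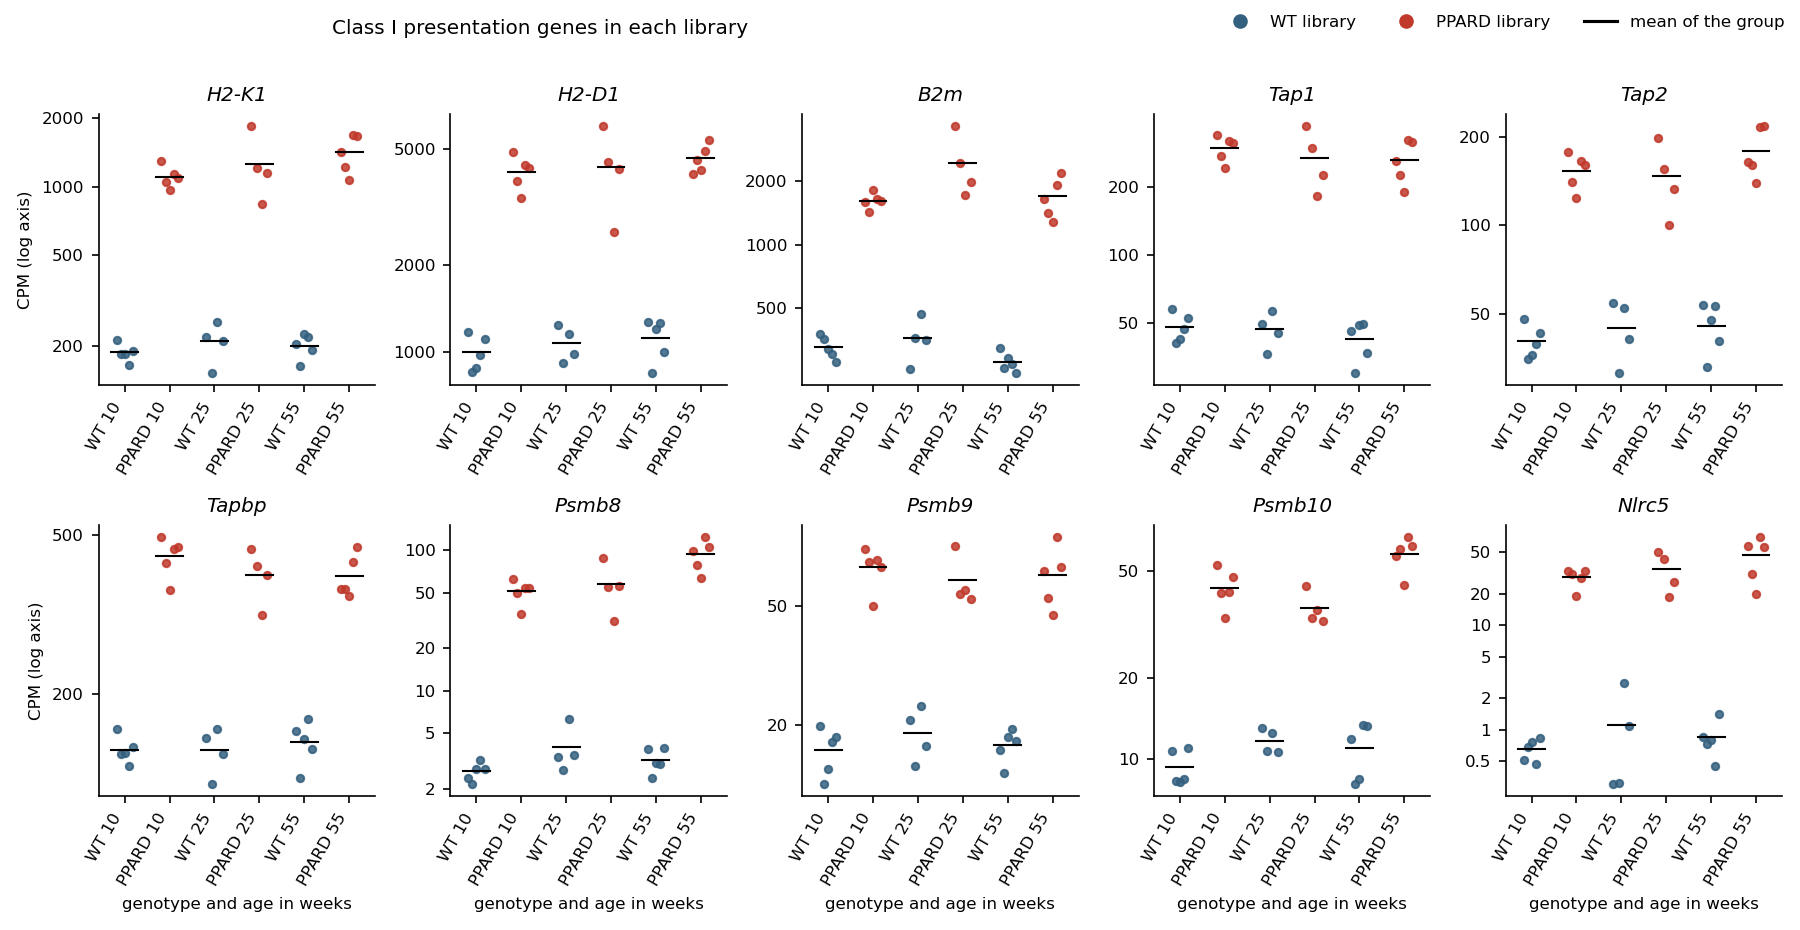
CPM (TMM-scaled counts relative to library size, log axis) of each of the 10 genes in each of the 28 libraries, by genotype and age in weeks; points are libraries and bars are group means. In every panel the lowest PPARD library stands above the highest WT library of any age, from 1.82 times as high for Tapbp to 6.63 times for Nlrc5.

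**Figure D2:**
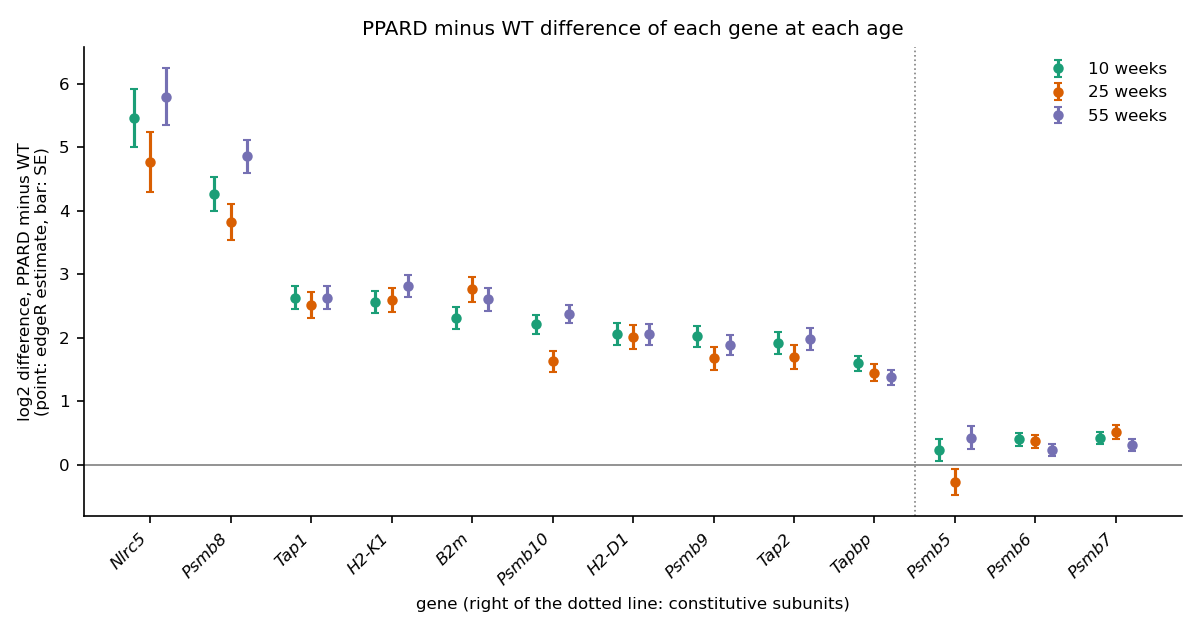
Log2 difference between PPARD and WT (point, edgeR estimate; bar, SE) of the 10 genes and of the constitutive proteasome subunits Psmb5, Psmb6 and Psmb7 at 10, 25 and 55 weeks. Nlrc5 and Psmb8 stand highest, at 3.82 to 5.79, and Tapbp lowest of the 10, at 1.38 to 1.60.

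Nlrc5, the class I transactivator, had the largest difference of the 10 at each age. At 10 weeks it was at 0.519, 0.689, 0.763, 0.469 and 0.840 CPM in the WT libraries and 32.7, 30.6, 19.1, 27.96 and 32.8 CPM in the PPARD libraries. At 25 weeks it was at 0.306, 0.312, 2.80 and 1.08 CPM in the WT libraries and 50.4, 42.8, 18.5 and 26.1 CPM in the PPARD libraries, and at 55 weeks at 0.851, 0.739, 0.802, 0.453 and 1.42 CPM in the WT libraries and 57.1, 31.1, 20.02, 69.5 and 55.4 CPM in the PPARD libraries. The highest WT library, at 2.80 CPM, was replicate 3 of 25 weeks, tagged as a replacement, and the lowest PPARD library, at 18.5 CPM, was replicate 3 of the same age. The log2 difference was 5.46 ± 0.46 at 10 weeks, 4.77 ± 0.47 at 25 weeks and 5.79 ± 0.45 at 55 weeks (SE), or 44-fold, 27.2-fold and 55.4-fold, with adjusted p of 1.40e-09, 3.39e-08 and 5.48e-11. Without the replacement library the 25-week difference was 5.79 ± 0.53. Exons of Nlrc5 overlap the antisense gene 9330175E14Rik, and the library kit does not mark strand.

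The heavy chain genes H2-K1 and H2-D1 encode the classical class I molecules that bind peptide. At 10 weeks H2-K1 was at 213, 184, 183, 165 and 189 CPM in the WT libraries and 1300, 1042, 963, 1133 and 1086 CPM in the PPARD libraries. At 25 weeks it was at 218, 152, 255 and 210.3 CPM in the WT libraries and 1841, 1211, 840.5 and 1150 CPM in the PPARD libraries, and at 55 weeks at 204, 162, 226, 218 and 191 CPM in the WT libraries and 1415, 1221, 1067, 1690 and 1668 CPM in the PPARD libraries. The genotypes were far apart at each age, and PPARD replicate 3 was the lowest PPARD library for H2-K1 at all 3 ages. The log2 difference was 2.56 ± 0.17 at 10 weeks, 2.59 ± 0.19 at 25 weeks and 2.82 ± 0.17 at 55 weeks (adjusted p of 5.47e-13, 7.97e-12 and 2.27e-14). H2-D1 was the more abundant chain: WT libraries ranged over 857 to 1174, 918 to 1237 and 849.9 to 1271 CPM at 10, 25 and 55 weeks, and PPARD libraries over 3392 to 4890, 2592 to 5976 and 4080 to 5377 CPM. It differed by 2.06 ± 0.17 at 10 weeks, 2.01 ± 0.19 at 25 weeks and 2.05 ± 0.17 at 55 weeks. Per kb of exon, the ratio of H2-K1 to H2-D1 was 0.240 ± 0.0274, 0.246 ± 0.0347 and 0.230 ± 0.0175 (SD; n = 5, 4 and 5) in WT libraries and 0.338 ± 0.0153, 0.372 ± 0.0354 and 0.386 ± 0.0546 in PPARD libraries. That ratio was higher in every PPARD library than in any WT library of its age, 1.41-fold, 1.51-fold and 1.67-fold, with exact permutation p of 0.00794, 0.0286 and 0.00794 before correction over the 21 ratio tests. Of the 75-base stretches of their transcripts, 1.12% for H2-K1 and 6.15% for H2-D1 also occur in other genes, so reads could be shared with related class I genes. Any effect of the mice's MHC haplotype on the mapping of reads to these polymorphic genes, and so on this ratio, was not tested.

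B2m, whose protein is the light chain of every class I molecule, stood at 379.6, 356, 319.8, 303 and 277 CPM in the WT libraries and 1588, 1426, 1816, 1647 and 1618 CPM in the PPARD libraries at 10 weeks. Its levels at 25 weeks were 259, 361, 469.7 and 354 CPM in the WT libraries and 3641, 2450, 1718 and 1982 CPM in the PPARD libraries, and at 55 weeks 323, 260.1, 290.3, 271 and 248 CPM in the WT libraries and 1652, 1414, 1275, 1925 and 2196 CPM in the PPARD libraries. PPARD replicate 1 of 25 weeks was the highest library of all. The log2 difference was 2.31 ± 0.18 at 10 weeks, 2.76 ± 0.20 at 25 weeks and 2.60 ± 0.18 at 55 weeks (adjusted p of 1.65e-11, 7.62e-12 and 3.02e-13). The ratio of B2m to H2-K1 per kb of exon overlapped between genotypes at each age: 3.37 ± 0.331 in WT and 2.85 ± 0.476 in PPARD libraries at 10 weeks (SD, n = 5 and 5), 3.41 ± 0.939 and 3.74 ± 0.286 at 25 weeks (n = 4 and 4), and 2.70 ± 0.341 and 2.30 ± 0.136 at 55 weeks (n = 5 and 5). Exact permutation p was 0.103, 0.514 and 0.0317, before correction over 21 ratio tests, and the 55-week value passed 0.05 in that form only. The CPM of H2-K1, H2-D1 and B2m together came to 0.151% ± 0.016, 0.164% ± 0.020 and 0.160% ± 0.023 of the TMM-scaled library size in WT libraries (SD, n = 5, 4 and 5). In PPARD libraries they came to 0.689% ± 0.065, 0.804% ± 0.261 and 0.774% ± 0.111. Because of the scaling these are not shares of a library's raw counts.

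The transporter genes Tap1 and Tap2 were both higher, and Tap1 by more. At 10 weeks Tap1 was at 57.8, 40.9, 42.5, 46.95 and 52.6 CPM in the WT libraries and 341, 276, 242, 319 and 314 CPM in the PPARD libraries, and at 25 weeks at 49.7, 36.2, 56.4 and 45.2 CPM in the WT libraries and 372, 298, 182 and 226 CPM in the PPARD libraries. At 55 weeks it was at 46.1, 30.1, 48.9, 49.7 and 36.7 CPM in the WT libraries and 260.0, 226, 190.1, 322 and 315 CPM in the PPARD libraries. Its log2 difference was 2.63 ± 0.18 at 10 weeks, 2.52 ± 0.20 at 25 weeks and 2.63 ± 0.18 at 55 weeks (adjusted p of 3.31e-12, 1.26e-10 and 7.23e-13). Tap2 lay at 35.05 to 47.95, 31.6 to 54.6 and 33.1 to 53.5 CPM in WT and 124 to 177, 100.1 to 197 and 139 to 217 CPM in PPARD libraries, differences of 1.92 ± 0.17 at 10 weeks, 1.70 ± 0.19 at 25 weeks and 1.97 ± 0.17 at 55 weeks. The 2 products work as a heterodimer, and the ratio of Tap1 to Tap2 per kb of exon varied little within a group. At 10 weeks it was 1.39 ± 0.0265 in WT and 2.27 ± 0.0225 in PPARD libraries (SD, n = 5 and 5), at 25 weeks 1.23 ± 0.121 and 2.13 ± 0.112 (n = 4 and 4), and at 55 weeks 1.08 ± 0.0720 and 1.70 ± 0.0994 (n = 5 and 5). It was thus 1.64-fold, 1.73-fold and 1.58-fold higher, without overlap, at exact permutation p of 0.00794, 0.0286 and 0.00794. Exons of Tap1 and Psmb9 overlap on opposite strands by up to 212 bases, and those of Tap2 overlap 2 antisense genes, Gm15821 and Gm20496. Tapbp, which encodes tapasin, was at 132 to 164, 119.6 to 164 and 123 to 174 CPM in WT and 363 to 493, 315 to 461 and 351 to 466 CPM in PPARD libraries. Its difference was 1.60 ± 0.12 at 10 weeks, 1.45 ± 0.13 at 25 weeks and 1.38 ± 0.12 at 55 weeks. Tapbp shares exon bases with the antisense gene Gm19412 and with Zbtb22.

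The immunoproteasome subunits replace the constitutive beta subunits of Psmb5 (by Psmb8), Psmb6 (by Psmb9) and Psmb7 (by Psmb10), which changes the ends of the peptides cut. Psmb8 was at 2.38, 2.17, 2.76, 3.23 and 2.77 CPM in the WT libraries and 63.1, 49.9, 35.1, 53.6 and 53.8 CPM in the PPARD libraries at 10 weeks. Its levels at 25 weeks were 3.36, 2.71, 6.28 and 3.45 CPM in the WT libraries and 88.98, 54.6, 31.6 and 55.7 CPM in the PPARD libraries, and at 55 weeks 3.85, 2.37, 3.03, 2.99 and 3.88 CPM in the WT libraries and 98.4, 79.2, 63.6, 124 and 105 CPM in the PPARD libraries. WT libraries stayed below 6.3 CPM, the highest again being the replacement library, while PPARD libraries of 10 and 55 weeks did not overlap each other. The log2 difference was 4.26 ± 0.26 at 10 weeks, 3.82 ± 0.28 at 25 weeks and 4.86 ± 0.27 at 55 weeks, or 19.2-fold, 14.1-fold and 28.9-fold (adjusted p of 1.07e-12, 6.68e-11 and 2.31e-14). Exons of Psmb8 overlap the antisense gene Gm20496.

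Psmb10 was at 10.8, 8.32, 8.27, 8.49 and 11 CPM in the WT libraries and 52.6, 41.5, 33.5, 41.6 and 47.3 CPM in the PPARD libraries at 10 weeks. At 25 weeks it was at 13.03, 10.7, 12.6 and 10.6 CPM in the WT libraries and 43.96, 33.3, 35.7 and 32.5 CPM in the PPARD libraries, and at 55 weeks at 11.9, 8.13, 8.46, 13.4 and 13.3 CPM in the WT libraries and 56.6, 60.1, 44.1, 66.7 and 61.6 CPM in the PPARD libraries. PPARD libraries of 25 weeks lay just below those of 55 weeks, without overlap. The log2 difference was 2.21 ± 0.15 at 10 weeks, 1.63 ± 0.16 at 25 weeks and 2.37 ± 0.14 at 55 weeks (adjusted p of 6.03e-13, 5.41e-09 and 2.76e-14). Psmb9 lay at 12.8 to 19.9, 14.6 to 23.2 and 13.9 to 19.5 CPM in WT and 50.1 to 77.7, 52.6 to 79.6 and 46.6 to 84.9 CPM in PPARD libraries, and differed by 2.02 ± 0.16 at 10 weeks, 1.68 ± 0.18 at 25 weeks and 1.89 ± 0.16 at 55 weeks.

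The constitutive partners moved far less. Psmb6 differed by 0.40, 0.37 and 0.23 and Psmb7 by 0.42, 0.52 and 0.32 at 10, 25 and 55 weeks, all called (adjusted p of 0.0018, 0.0071 and 0.034 for Psmb6 and 0.0013, 5.06e-04 and 0.0062 for Psmb7). Psmb5 differed by 0.23, -0.27 and 0.43, with adjusted p of 0.33, 0.29 and 0.04, and only the 55-week value was called. Per kb of exon, the ratio of Psmb8 to Psmb5 was 0.0649 ± 0.0143, 0.0961 ± 0.0364 and 0.103 ± 0.0225 in WT libraries (SD, n = 5, 4 and 5) and 1.03 ± 0.151, 1.79 ± 0.951 and 2.34 ± 0.986 in PPARD libraries. By this RNA measure Psmb8 was thus below Psmb5 in every WT library, and above it in all 5 PPARD libraries at 55 weeks, where the lowest ratio was 1.25. The ratio depends on the exon lengths used and does not measure the subunit proteins. Psmb9 to Psmb6 was 0.186 ± 0.0184, 0.203 ± 0.0472 and 0.187 ± 0.0230 in WT and 0.573 ± 0.0613, 0.501 ± 0.0906 and 0.603 ± 0.198 in PPARD libraries, below 1 in every library. Psmb10 to Psmb7 was 0.181 ± 0.0167, 0.241 ± 0.0244 and 0.235 ± 0.0485 in WT and 0.620 ± 0.0799, 0.522 ± 0.0222 and 1.01 ± 0.234 in PPARD libraries. The fold changes of the 3 ratios were 16.1, 17.2 and 21.3 for Psmb8 to Psmb5, 3.08, 2.49 and 3.11 for Psmb9 to Psmb6, and 3.42, 2.17 and 4.27 for Psmb10 to Psmb7. None of the 3 ratios overlapped between genotypes at any age, at exact permutation p of 0.00794, 0.0286 and 0.00794. The ratio of Psmb8 to Psmb9 was also higher, 4.67-fold, 4.47-fold and 7.95-fold, with the same p, and PPARD libraries lay at 0.581 to 0.674 at 10 weeks, 0.465 to 0.929 at 25 weeks and 1.13 to 1.29 at 55 weeks.

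**Figure D3:**
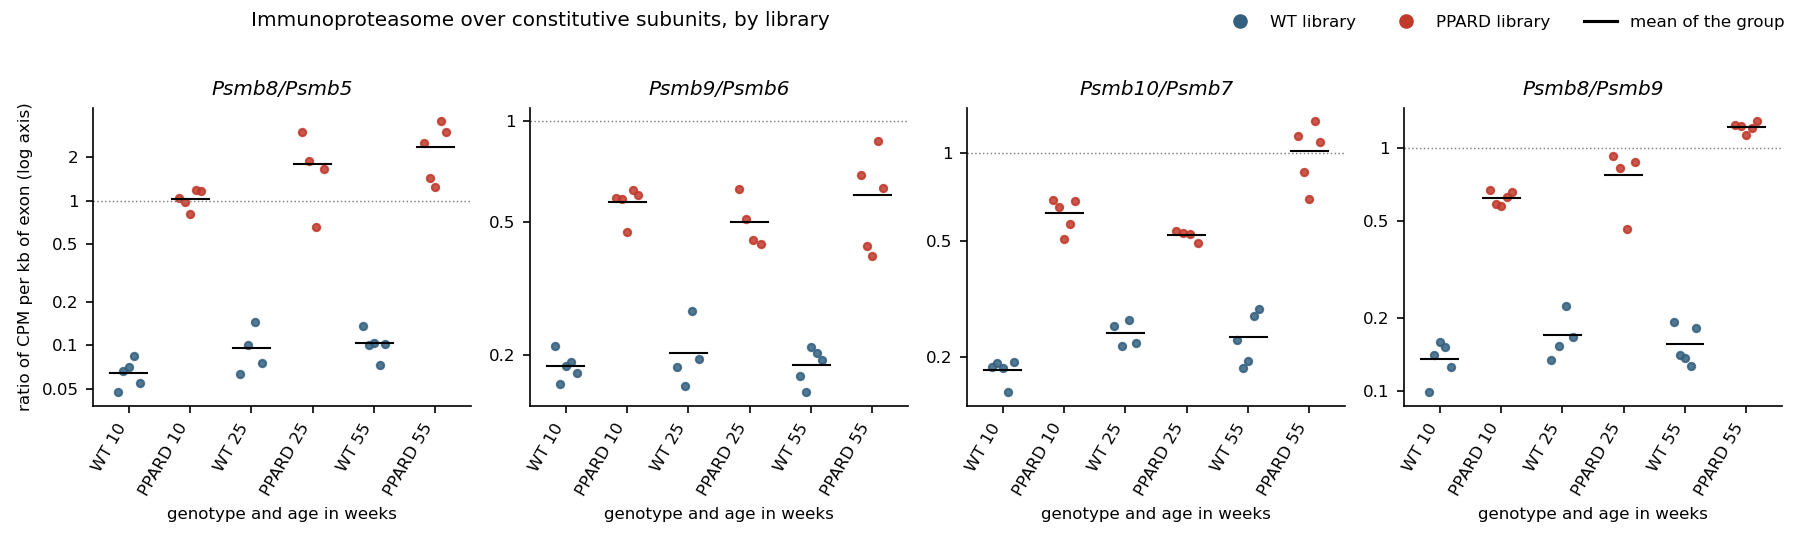
Ratio of CPM per kb of exon (log axis; dotted line, ratio of 1) of each immunoproteasome subunit to the constitutive subunit it replaces, and of Psmb8 to Psmb9, in each library by genotype and age in weeks; bars are group means. PPARD libraries lie above all WT libraries of their age in each panel, and Psmb8 to Psmb9 is highest in the PPARD libraries of 55 weeks, at 1.13 to 1.29.

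The order of the 10 genes by mean CPM per kb of exon was H2-D1, B2m, H2-K1, Tapbp and Tap1 from the top in 5 of the 6 groups, and B2m preceded H2-D1 in the PPARD libraries of 25 weeks. Nlrc5 was lowest in every group, at 0.0808, 0.138 and 0.105 in WT and 3.53, 4.24 and 5.74 in PPARD libraries. Psmb8 was ninth in each WT group, at 1.64, 2.43 and 1.98, and ninth, eighth and sixth in PPARD libraries at 10, 25 and 55 weeks, at 31.4, 35.5 and 57.9. Neighbours in this order often overlapped: the library ranges of H2-D1 and B2m did so in 5 of the 6 groups, all but WT at 55 weeks, and those of Tap2 and Psmb9 in all 6. H2-K1 was apart from its neighbours, above Tapbp and below B2m or H2-D1, in every group. Within a group the libraries tended to be high or low for many of the genes together. PPARD replicate 1 of 25 weeks was the highest of its group for 10 of 10 genes, PPARD replicate 3 was the lowest for 9 of 10 at 10 weeks, 8 of 10 at 25 weeks and 9 of 10 at 55 weeks, and the WT replacement library was the highest of its group for 7 of 10. Replicate numbers name libraries only and tie none across ages.

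Few of the 10 genes were called between ages within a genotype. In WT libraries edgeR called 0 of 10 from 10 to 25 weeks (0.0126% of genes tested were called; 1 of 10 had an unadjusted p under 0.05) and 0 of 10 from 10 to 55 weeks (12.7% of genes; 0 of 10 at an unadjusted p under 0.05). DESeq2 and limma-voom also called 0 of 10 in both. In PPARD libraries 0 of 10 were called from 10 to 25 weeks (2.81% of genes; 1 at an unadjusted p under 0.05), and DESeq2 and limma-voom each called 1, B2m. Its edgeR difference there was 0.60 ± 0.18, with an adjusted p of 0.056. From 10 to 55 weeks 2 of 10 were called in PPARD libraries, where 51.7% of genes were: Psmb8, by 0.89 ± 0.21 (adjusted p of 8.88e-04), and Psmb10, by 0.42 ± 0.13 (adjusted p of 0.0096). H2-K1 and Nlrc5 differed by 0.35 ± 0.16 and 0.71 ± 0.31 without being called (adjusted p of 0.063 and 0.061). Of the 30 pairs of ages in WT libraries (10 genes, 3 pairs of ages each), 30 overlapped, and in PPARD libraries 28 of 30 did, the exceptions being Psmb8 between 10 and 55 weeks and Psmb10 between 25 and 55 weeks. With scaling by library size alone, which moved the 55-week genotype median over all genes from 0.03 to 0.43, 9 of 10 were called from 10 to 55 weeks in PPARD libraries. With a term for library group 1 of 10 was called, Psmb8, by 0.77. The epithelial markers had their lowest sums in the PPARD libraries of 55 weeks, and their part in these values was not tested.

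The genotype difference itself was tested for change with age. From 10 to 25 weeks 0 of 10 changed (0.00632% of genes were called; 1 of 10, Psmb10, had an unadjusted p under 0.05), and from 10 to 55 weeks 0 of 10 (36.4% of genes; 0 of 10 at an unadjusted p under 0.05). DESeq2 and limma-voom called 0 of 10 in both, and scaling by library size alone called 4 of 10 from 10 to 55 weeks. From 25 to 55 weeks 2 of 10 were called, against 28.9% of genes: the difference of Psmb8 grew by 1.03 ± 0.38 (adjusted p of 0.039) and that of Psmb10 by 0.74 ± 0.21 (adjusted p of 0.0089). All 55-week libraries are in library group 2 and no 25-week library is, but both groups were present at 10 weeks. There the genotype difference was 4.31 in group 1 and 4.14 in group 2 for Psmb8, and 2.19 in both for Psmb10. With a term for library group, which also sets the replacement library apart, the change from 25 to 55 weeks was 0.69 ± 0.38 for Psmb8 (adjusted p of 0.19) and 0.71 ± 0.23 for Psmb10 (adjusted p of 0.024). Both genotypes otherwise share 1 tag at each of these ages, so the term cannot adjust this change for library group. It in effect leaves out the replacement library, and leaving that library out gave 0.69 ± 0.38 and 0.71 ± 0.23. Psmb8 also lost the call without any 1 of 10 single libraries of these ages, the replacement library among them, and Psmb10 kept it in each of those settings.

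The class I genes were also compared within the library groups of 10 weeks. In the first group (3 against 3 libraries) 10 of 10 were called higher, with a median difference of 2.18 and a range of 1.49 to 5.35. In that fit 1821 of 16046 genes tested were called higher. In the second (2 against 2) 10 of 10 were called higher, with a median of 2.34 and a range of 1.72 to 5.60, beside 910 of 16408 genes tested. The difference was thus about as large within each group as over both.

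Other chain genes of the class I family rose with the 10. Of 18 further class I and class I-like genes, 14 were higher and 2 lower at 10 weeks, 13 higher and 1 lower at 25 weeks, and 16 higher and 0 lower at 55 weeks, with median differences of 1.99, 1.88 and 2.39. For this list and those below, 2823, 3318 and 5009 of all 15812 genes tested were called higher and 2557, 2944 and 4371 lower. H2-Q6 was at 1.95, 2.07, 1.95, 1.46 and 1.93 CPM in the WT libraries and 85.7, 52.2, 51.01, 75.7 and 71.9 CPM in the PPARD libraries at 10 weeks. Its difference was 5.16 ± 0.39 at 10 weeks, 4.62 ± 0.42 at 25 weeks and 4.88 ± 0.38 at 55 weeks, and that of H2-Q7, another gene of the Q region, 4.72 ± 0.54 at 10 weeks, 4.56 ± 0.57 at 25 weeks and 6.17 ± 0.56 at 55 weeks. H2-T10 differed by 2.48, 2.35 and 2.42, H2-T22 by 2.73, 2.05 and 2.54, H2-Q4 by 2.61, 2.44 and 2.36 and H2-T23, whose product (Qa-1) is read by NK cell receptors, by 1.61, 1.30 and 1.59. Counting of these paralogs is uncertain, since 17.85% of the 75-base stretches of H2-Q6, 22.63% of H2-Q7, 23.31% of H2-T10 and 24.63% of H2-T22 occur in other genes. Cd1d1, which presents lipids, went the other way: it differed by -0.83, -1.33 and -0.65, called at 10 and 25 weeks. Its level was low, at most 2.02 CPM in any library, and 18.71% of its 75-base stretches occur in other genes. H2-M2 was called lower at 10 weeks (-2.57 ± 1.01, adjusted p of 0.048) and higher at 55 weeks (1.57 ± 0.54), but it was near the floor. At 10 weeks it was at 0.084 to 0.26 CPM in WT and 0 to 0.06 in PPARD libraries. At 55 weeks it was at 0 to 0.32 and 0.27 to 1.23 CPM, with overlap. Mr1, which presents metabolites, was not called at any age (-0.19, -0.13 and 0.16).

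Beyond Tap1, Tap2 and Tapbp, the loading machinery was less uniform. Of 9 further genes for trimming, folding and loading, 2 were called higher at 10 weeks, 6 at 25 weeks and 6 at 55 weeks, and 0 lower, with medians of 0.13, 0.39 and 0.46. Tapbpl, a tapasin-related peptide editor, differed by 1.28, 1.16 and 2.12 and Erap1, which trims peptides in the endoplasmic reticulum, by 0.84, 1.36 and 2.08. The folding factors were nearer to 0: Calr differed by 0.23, 0.36 and 0.26, Canx by -0.07, 0.39 and 0.19 and Pdia3 by 0.14, 0.44 and 0.58, of which Calr and Canx were called at 25 weeks and Pdia3 at 25 and 55 weeks. Lnpep (-0.06, 0.54 and 0.46) was called at 25 and 55 weeks, Ganab (0.13, 0.03 and 0.29) and Uggt1 (0.13, 0.22 and 0.53) at 55 weeks, and Sec61a1 (0.06, 0.04 and -0.11) at no age. The activator genes Psme1 and Psme2, whose products cap the 20S core as PA28, rose at every age, by 1.43, 1.29 and 1.25 and 1.41, 1.20 and 1.37. Pomp, the assembly chaperone of the core, differed by 0.35, 0.25 and 0.31 and was called at 10 and 55 weeks.

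In the rest of the proteasome the calls were of small size and all upward. Of 14 constitutive core genes 12, 10 and 12 were called higher at 10, 25 and 55 weeks and 0 lower, with medians of 0.42, 0.45 and 0.32. Of 21 genes of the regulatory particle and other caps 16, 20 and 15 were higher and 0 lower, with medians of 0.41, 0.40 and 0.33. Psma3 differed by 0.67, 0.78 and 0.76 and Psma5 by 0.61, 0.67 and 0.90, among the largest of the core. Among the caps, Psmd2 differed by 0.59, 0.55 and 0.62 and Psmd14 by 0.43, 0.77 and 0.43. All these values are well below those of Psmb8, Psmb9 and Psmb10.

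Known regulators of class I were split. Of 21 such genes 11, 12 and 13 were higher and 1, 1 and 3 lower at 10, 25 and 55 weeks. Among all 15812 genes tested, 2823, 3318 and 5009 were higher and 2557, 2944 and 4371 lower. Irf7, a master regulator of type I interferon genes, was at 35.4, 18.6, 20.2, 10.6 and 13.3 CPM in the WT libraries and 378, 343, 243, 311 and 311 CPM in the PPARD libraries at 10 weeks and at 21.1, 15.97, 19.4, 20.7 and 19.1 CPM in the WT libraries and 178, 221, 256, 159 and 159 CPM in the PPARD libraries at 55 weeks. It differed by 4.00 ± 0.23 at 10 weeks, 4.39 ± 0.27 at 25 weeks and 3.33 ± 0.23 at 55 weeks, and the difference was smaller at 55 than at 25 weeks (change -1.06 ± 0.32, adjusted p of 0.013). Stat2 (2.88, 2.90 and 1.87), Irf9 (1.93, 2.02 and 1.22) and Irf1 (1.70, 1.55 and 1.85), which carry interferon signals to the nucleus, were called higher at all 3 ages. The differences of Stat2 and Irf9 shrank from 10 to 55 weeks, by 1.01 ± 0.18 and 0.71 ± 0.15 on the log2 scale (adjusted p of 5.42e-05 and 3.35e-04), while none of the 10 class I genes passed the test over that interval. Factors that bind the SXY module with NLRC5 showed no common direction. Rfx5 differed by 0.00, 0.24 and 0.69, Rfxap by -0.35, -0.26 and 0.29, Rfxank by 0.21, -0.17 and -0.83, Nfya by -0.06, 0.13 and 0.13, Nfyb by 0.10, 0.40 and 0.53, Nfyc by -0.15, -0.21 and -0.36 and Creb1 by -0.18, 0.29 and 0.00. Of these 7, only Rfxap was called at 10 weeks, lower, and only Nfyb at 25 weeks, higher. At 55 weeks Rfx5, Rfxap and Nfyb were called higher and Rfxank and Nfyc lower, though Nfyc was at 0.04 with scaling by library size alone. Rela and Relb, NF-kappaB subunits, differed by 0.46, 0.38 and 0.34 and 1.17, 1.03 and 0.26.

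Of 10 interferon receptor and kinase genes, 6, 7 and 5 were higher and 0 lower. Socs1, a feedback inhibitor of JAK kinases that interferons induce, differed by 2.84, 2.65 and 3.21. Ifngr1 (0.62, 0.63 and 0.06) and Ifngr2 (0.32, 0.45 and 0.44) form the receptor for interferon gamma, and Ifnlr1 (0.60, 0.60 and -0.09) and Il10rb (0.05, 0.31 and 0.11) that for interferon lambda. Ifnar1 (0.15, 0.14 and 0.48) and Ifnar2 (-0.10, -0.19 and 1.08), the type I interferon receptor, were called at 55 weeks only. Jak1 differed by 0.38, 0.53 and 0.32, Jak2 by 0.42, 0.69 and -0.23 and Tyk2 by 0.12, -0.12 and 0.06.

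**Figure D4:**
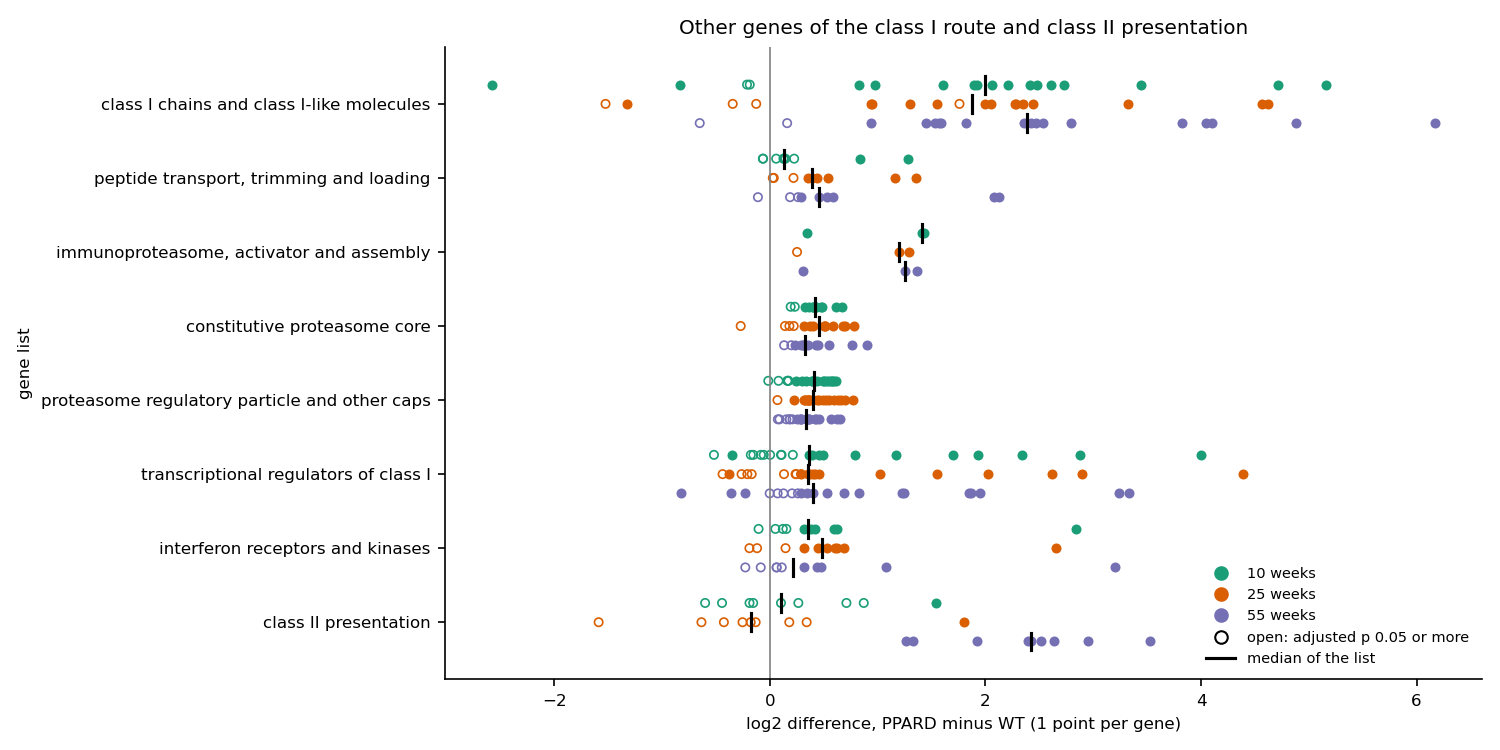
Log2 difference between PPARD and WT of each gene of 8 lists around the 10 class I genes, which are left out here, at 10, 25 and 55 weeks; filled points were called, open points were not, and bars are list medians. The medians of the class I chain list are 1.99, 1.88 and 2.39 and those of the class II list 0.10, -0.18 and 2.42, with class II genes at 1.27 to 3.53 at 55 weeks.

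Class II presentation, which shows peptides from outside the cell and is mostly used by professional antigen-presenting cells, had another time course. Of 9 class II genes 1 was higher at 10 weeks and 1 at 25 weeks, in both cases Ctss, a lysosomal protease, and 9 of 9 were higher at 55 weeks, with medians of 0.10, -0.18 and 2.42. Ciita, the class II counterpart of Nlrc5, was at 0.173, 0.848, 0.382, 1.09 and 0.672 CPM in the WT libraries and 0.252, 0.720, 0.490, 0.439 and 0.220 CPM in the PPARD libraries at 10 weeks. Its levels at 25 weeks were 0.245, 0.312, 1.13 and 1.56 CPM in the WT libraries and 1.15, 0.513, 0.359 and 0.521 CPM in the PPARD libraries, and at 55 weeks 1.10, 1.33, 0.891, 1.40 and 0.985 CPM in the WT libraries and 9.12, 2.96, 2.77, 22.7 and 17.2 CPM in the PPARD libraries. The genotypes overlapped at 10 and 25 weeks and were separate at 55 weeks, where PPARD libraries spread from 2.77 to 22.7 CPM. Its difference was -0.52 ± 0.71 at 10 weeks, -0.44 ± 0.72 at 25 weeks and 3.24 ± 0.51 at 55 weeks, and it grew by 3.76 ± 0.88 from 10 to 55 weeks (adjusted p of 0.0014). Cd74, the class II chaperone, differed by -0.15, -0.13 and 2.96, and its difference grew by 3.11 ± 0.63 (adjusted p of 3.74e-04). H2-Aa (-0.19, -0.18 and 2.51), H2-Ab1 (0.71, 0.34 and 1.92) and H2-Eb1 (-0.60, -1.59 and 2.64), the class II chains, were called at 55 weeks only. The loading factors H2-DMa (0.10, -0.25 and 3.53) and H2-DMb1 (0.26, 0.18 and 2.39) and their modulators H2-Oa (0.87, -0.64 and 1.27) and H2-Ob (-0.44, -0.43 and 1.33) were too. For 6 of the 9 class II genes the growth from 10 to 55 weeks was itself called, against 0 of the 10 class I genes. Over all genes tested, 36.4% were called for a change in either direction. Genes near the 10 were not all steady. Growth was called for 5 of the 18 further class I and class I-like genes, with 1 called lower. It was called for 4 of the 9 further genes for trimming, folding and loading, with 0 lower.

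**Figure D5:**
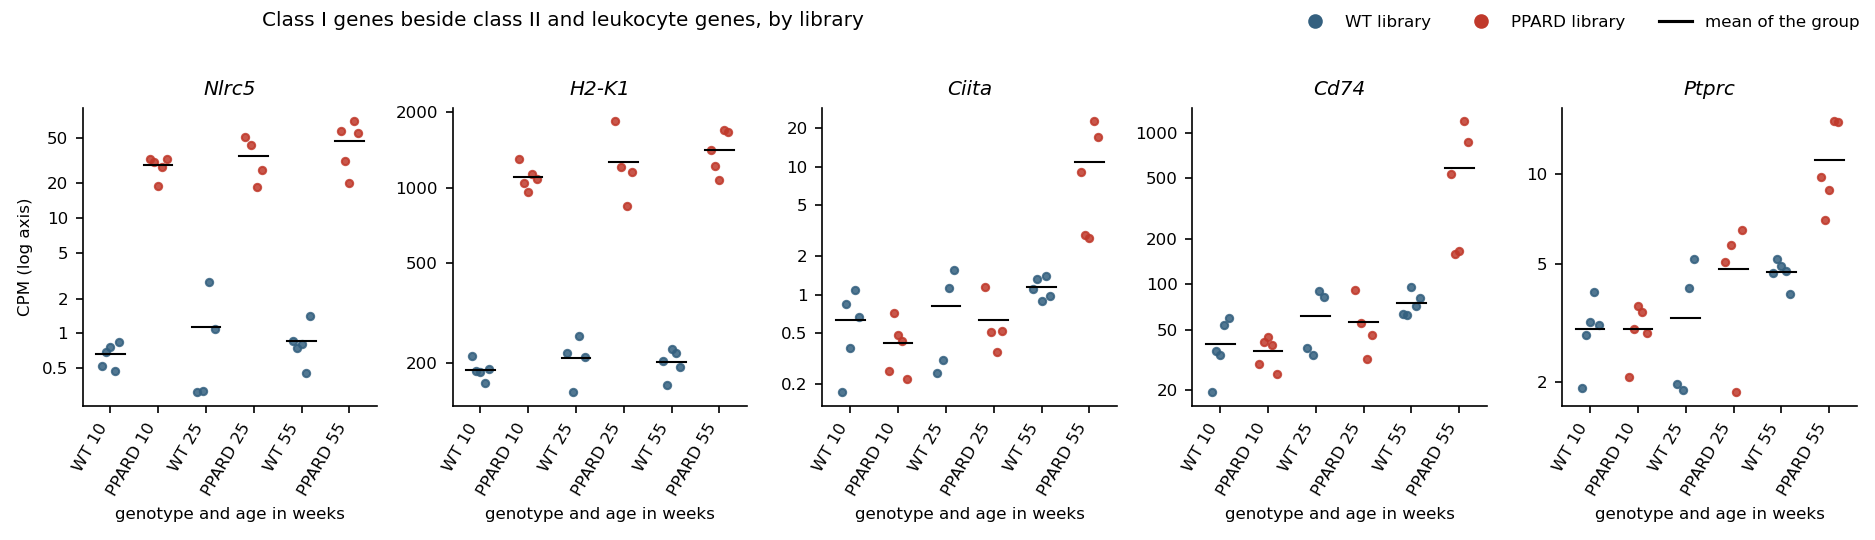
CPM (log axis) of the class I genes Nlrc5 and H2-K1, the class II genes Ciita and Cd74 and the leukocyte gene Ptprc in each library by genotype and age in weeks; bars are group means. Nlrc5 and H2-K1 separate the genotypes at all 3 ages, and Ciita, Cd74 and Ptprc at 55 weeks only.

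Leukocytes express class I genes strongly, and their markers are therefore given beside the class I values. At 10 and 25 weeks, where all 10 class I genes were already higher, 0 of 8 tested T and NK cell markers and 0 of 4 pan-leukocyte markers were called by edgeR, and 0 of either list had an unadjusted p under 0.05. DESeq2 and limma-voom also called 0 of them higher. Only 8 of 16 T and NK, 7 of 10 B and plasma and 17 of 19 myeloid markers passed the filter on low counts. That filter keeps genes with enough counts in 1 group alone, so markers could pass through the 55-week PPARD libraries, where they were high. Their counts at 55 weeks are thus not independent of the filter. At 10 and 25 weeks all T and NK markers together came to at most 4.02 CPM, so differences could be missed there. Of 17 tested myeloid and dendritic markers 2 were higher at 10 weeks, Cd68 and Mpeg1, and at 25 weeks 3 were higher, Cd14, Cd68 and Mpeg1, and 1 lower, Flt3. Of 7 tested B and plasma cell markers 1 was higher at 10 weeks, Cd22, and 0 at 25 weeks. At 55 weeks 8 of 8 T and NK cell, 4 of 4 pan-leukocyte, 14 of 17 myeloid and 7 of 7 B and plasma cell markers were higher, and 1 myeloid marker, Zbtb46, was lower. Ptprc (CD45), carried by nearly all leukocytes, was at 1.90, 2.86, 3.18, 4.01 and 3.11 CPM in the WT libraries and 2.08, 2.998, 3.61, 3.42 and 2.92 CPM in the PPARD libraries at 10 weeks. At 25 weeks it was at 1.96, 1.88, 4.12 and 5.17 CPM in the WT libraries and 5.07, 5.76, 1.84 and 6.48 CPM in the PPARD libraries, and at 55 weeks at 4.65, 5.17, 4.90, 4.71 and 3.94 CPM in the WT libraries and 9.80, 7.004, 8.86, 15.1 and 15 CPM in the PPARD libraries. It did not separate the genotypes at 10 or 25 weeks, with differences of 0.01 ± 0.29 and 0.48 ± 0.32, and did at 55 weeks (1.26 ± 0.27).

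Summed over the whole list, 16 T and NK markers lay at 1.52 to 3.19 CPM in WT and 2.11 to 3.12 in PPARD libraries at 10 weeks, at 1.90 to 3.93 and 2.83 to 4.02 at 25 weeks, and at 4.35 to 6.15 and 9.87 to 30.1 at 55 weeks. The 10 B and plasma markers lay at 6.84 to 18.1 and 6.87 to 18.6, at 9.97 to 33.9 and 11.5 to 45.6, and at 116 to 210 and 452 to 1663 CPM. The 19 myeloid and dendritic markers lay at 34.2 to 92.6 and 88.2 to 106, at 53.1 to 133 and 87.0 to 163, and at 105 to 118 and 257 to 466 CPM. The 4 pan-leukocyte markers lay at 6.32 to 16.9 and 9.08 to 15.9, at 8.75 to 21.5 and 8.89 to 22.9, and at 18.2 to 21.03 and 26.1 to 62.9 CPM. S100a8, a neutrophil gene, was at 0 in every PPARD library of 10 and 25 weeks, and Gzma, of cytotoxic cells, at 0 in every WT library of those ages. Sums of these 4 leukocyte lists overlapped between genotypes at 10 and 25 weeks and were separate at 55 weeks. Differences of the 10 class I genes at 55 weeks were about the size they had been at 10 weeks. The sum of 9 endothelial markers was 38.1 to 77.1 CPM in WT and 88.4 to 119 in PPARD libraries at 10 weeks, without overlap, and overlapped at 25 weeks (37.9 to 101 and 62.7 to 123) and 55 weeks (54.4 to 86.1 and 64.6 to 80.3). That of 8 fibroblast markers overlapped at each age. Of the 9 endothelial markers 1 was higher and 0 lower at 10 weeks, 1 higher and 4 lower at 25 weeks, and 3 higher and 2 lower at 55 weeks. Of the 8 fibroblast markers 0 were called by edgeR at 10 and 25 weeks (1 and 0 at an unadjusted p under 0.05; limma-voom called 1 higher at 10 weeks), and 1 was higher and 1 lower at 55 weeks. The endothelial gene called at every age was Tek, which differed by 3.92, 4.36 and 1.80, while Pecam1, another endothelial marker, was not called (-0.18, -0.59 and 0.17). The part of these cell types in the class I values was not tested.

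The genes whose pattern was most like that of the class I genes were sought by the correlation of each gene's log2 CPM with the mean of the 10, a description over 28 libraries that share genotype groups. Over all libraries the 8 most alike were H2-Q6 (Pearson's r of 0.995), H2-T10 (0.992), H2-Q4 (0.989), Irgm1 (0.987), Igtp (0.987), Trafd1 (0.986), Parp14 (0.985) and Ifi47 (0.985). Irgm1, Igtp and Ifi47 are interferon-induced GTPase genes. Irgm1 had means of 4.93, 4.68 and 4.78 CPM in WT and 154, 180 and 121 CPM in PPARD libraries at 10, 25 and 55 weeks. Igtp had means of 11.5, 9.14 and 8.56 CPM in WT and 189, 193 and 160 CPM in PPARD libraries. After the mean of each group had been removed, so that only the spread between libraries of a group remained, the 8 were H2-Q6 (0.915), H2-Q4 (0.875), Xdh (0.868), H2-T10 (0.867), Tapbpl (0.866), H2-T22 (0.853), Igtp (0.850) and Samhd1 (0.829). H2-Q6, H2-Q4, H2-T10 and Igtp stood in both sets.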

How the data were processed

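Polyadenylated RNA was sequenced as 75-base paired ends from TruSeq v2 libraries, per the labels' protocols. Per the submitters' processing notes, TopHat2 2.0.14, HTSeq 0.6.1 and DESeq2 were used with genome build mm10. Which annotation was counted, and with which strand option, is not given in the sources used here. The values used are the authors' raw counts per gene symbol, as deposited in 1 table of 28 libraries, with totals of 10982888 to 30891108 counts.

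The 10 genes and the gene lists around them were chosen with earlier results of these data known, and their counts are descriptions. Libraries were grouped by genotype and age from the labels. Genes with low counts were removed with edgeR's filterByExpr, which left 15812, and 1 edgeR 4.0.16 model (R 4.3.3; TMM scaling, quasi-likelihood test) over the 6 groups gave 3 genotype differences, 4 differences with age and 3 changes of the genotype difference, each with Benjamini-Hochberg adjustment over all genes tested and a threshold of 0.05. Differences are log2, PPARD minus WT or later minus earlier age, with the SE. CPM are TMM-scaled. Levels and ratios per kb use GENCODE M21 exon length, and ratios were tested with two-sided exact permutation tests (scipy 1.17.1). Genes named outside the fixed lists were the 8 most correlated with the mean of the 10 on log2(CPM + 0.1), over all libraries and after removal of group means. 1 regulator of the fixed lists is counted with its list but not reported by name here. The edgeR fit alone was tested on simulated counts, for the genotype difference at 10 weeks. Alternatives were other scaling, no filter, DESeq2 1.42.0, limma-voom (limma 3.58.1), a replicate block, a library group term and leaving out each library. Analysis of the 10-week library group 2 alone was added after seeing the data. Correlations of same-numbered libraries' deviations lay between -0.422 and 0.229, so the numbers were not taken as pairs.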

Additional observations from a re-analysis of the deposited data

Results flagged for a closer look

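Psmb9 stood apart in 1 library. In PPARD replicate 1 of 25 weeks it was at 79.6 CPM, against 52.7 to 56.4 CPM in the other 3 libraries of that group, and the gap relative to the range exceeded Dixon's critical value for 4 samples. It was 1 of 60 groups of values tested, and chance gives about 1 in 20. Without that library the 25-week difference of Psmb9 was 1.52 ± 0.18, still called. The same library was the highest of its group for all 10 class I genes, with Ptprc at 5.07 CPM.

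For 2 genes the genotype difference itself differed between 25 and 55 weeks by the interaction test of edgeR with Benjamini-Hochberg adjustment: it grew by 1.03 for Psmb8 (adjusted p = 0.039) and by 0.74 for Psmb10 (adjusted p = 0.0089). With a term for library group these changes were 0.69 (adjusted p = 0.19) and 0.71 (adjusted p = 0.024). For these ages that term in effect leaves out the WT replacement library and does not adjust for library group.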

How the results depend on the processing

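The calls of the 10 genes between genotypes did not depend on the settings run: 580 of 580 alternative values of the 30 differences were called in the same direction, and Nlrc5 at 25 weeks ranged from 4.45 to 5.79. Calls with age did depend on them. With library size alone, which moved the all-gene genotype median to 0.15 at 25 weeks and 0.43 at 55 weeks and the share of calls that were higher from 52.5%, 53% and 53.4% to 61.7%, 74.5% and 78.9%, the called members were 1 of 10 for PPARD 25 against 10 weeks (0 by the reported test), 9 for PPARD 55 against 10 weeks (2 reported) and 4 for the change of genotype difference from 10 to 55 weeks (0 reported). DESeq2 and limma-voom each called 1 for PPARD 25 against 10 weeks, and limma-voom 4 for PPARD 55 against 10 weeks, where the compared groups only gave 3 and a library group term or the 10-week library group 2 alone left 1. For the change from 25 to 55 weeks (2 reported), no filter, the compared groups only, a library group term and either 10-week library group alone each left 1, Psmb10. In that change the library group term in effect only leaves out the replacement library. Leaving out 1 library gave 0 to 1, 2 to 4 and 1 to 2 called members for PPARD 25 against 10 weeks, PPARD 55 against 10 weeks and the change from 25 to 55 weeks. PPARD 55 against 10 weeks reached 4 without PPARD replicate 2 or 3 of 55 weeks. The replicate block changed no call of the 10 genes: it called 10 of 10 between genotypes at each age and 2 of 10 for the change from 25 to 55 weeks. Of 198 called differences of 76 named genes, 2 turned in direction, both with library size alone: Nfyc between genotypes at 55 weeks (0.039) and Psmb7 in PPARD 55 against 10 weeks (0.156). Another 46 lost the call under at least 1 alternative. Values that were not called were not followed in this way. Among the ratios, direction turned for the log2 ratio of B2m to H2-K1 at 25 weeks without WT replicate 1 (-0.006, within a range of -0.006 to 0.326 when each library was left out). With 1 library left out at 25 weeks the smallest exact p is 0.0571, so those permutation tests cannot pass. Of the 10 genes Nlrc5, at 0.306 to 2.80 CPM in WT libraries, had the widest errors.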
